A study of Mus musculus with 12 samples.

Results

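Rosiglitazone (Rosi), a drug that activates the nuclear receptor PPARγ, was given to fat-tissue cells of obese mice in culture, and the genes described here are 8 that stood far higher with Rosi although they are not part of the core program of fat storage: Prlr, Itih5, Steap4, B3galt2, Plbd1, Sntb1, Lrrc39 and Nfe2l3. They are 8 of the 35523 genes over which reads were summed, and they were picked on these same data for the size of their rise with Rosi, so each difference between Rosi and vehicle (Veh) in these genes is given as a description, with no test. The cells were the stromal vascular fraction, the non-adipocyte cells freed by digestion, of epididymal white fat from 12-week-old male Lepob/Lepob mice, which lack leptin and become obese. They were differentiated for 2 days in 0.5 mM IBMX, 1 µM dexamethasone and 5 µg/mL insulin, with 1 µM Rosi or with DMSO as Veh, and then kept for 2 days in insulin with Rosi or DMSO. Cycloheximide at 100 µg/mL, which holds ribosomes on the mRNA, was added to all cultures for the last minutes. From each culture condition the polyadenylated RNA was sequenced in 2 fractions, the polysome fraction (pooled density gradient fractions of ribosome-loaded mRNA, with the lower bound given as 3 ribosomes or as above 3 in different sources) and the input (total lysate RNA).

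The groups held 3 polysome Rosi, 3 polysome Veh, 3 input Rosi and 2 input Veh libraries. The input Veh group was deposited as 3 libraries, of which replicates 2 and 3 hold identical values for all 117135 transcripts and were counted once. The titles that name only the tissue were taken as the polysome libraries. The 11 libraries held 17.4 to 24.02 M (mega) estimated reads. The labels call the libraries biological replicates but do not say whether they came from separate animals. No lean or undifferentiated culture was analysed here, so each value is that of obese-mouse cells in the differentiation medium. Values are in CPM, counts per M reads after scaling each library to a common size, and a mean is followed by its SD. In such a bulk measurement, more cells that express a gene and more of its RNA in each cell cannot be told apart.

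Most of these genes are known for work outside lipid storage. Prlr is the receptor for prolactin, a cytokine-type receptor that signals through the kinase Jak2 and the transcription factor Stat5. Itih5 is a heavy chain of the inter-alpha-trypsin inhibitor family, secreted proteins that bind hyaluronan in the extracellular matrix. Steap4 is a membrane metalloreductase that reduces iron and copper. B3galt2 adds galactose in a beta-1,3 linkage to sugar chains in the Golgi. Sntb1 (beta-1 syntrophin) is an adaptor of the dystrophin complex under the plasma membrane, and Lrrc39 (myomasp) was described as a protein of the M-band of the striated muscle sarcomere. Nfe2l3 (NRF3) is a transcription factor of the cap'n'collar family that pairs with small Maf proteins. Plbd1 is a phospholipase B domain protein, a name that belongs to lipid breakdown, so that the description of the set as lying outside lipid metabolism does not strictly hold for it.

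The genes lie at different places in the genome (GRCm38): Prlr at chr15:10177238-10349180 and Sntb1 at chr15:55636388-55906949, Itih5 at chr2:10153571-10256529, Steap4 at chr5:7960457-7982213, B3galt2 at chr1:143640664-143654614, Lrrc39 at chr3:116562973-116583134, and Plbd1 at chr6:136612070-136661928 and Nfe2l3 at chr6:51432670-51458768. Sntb1 and Plbd1 are on the minus strand and the others on the plus strand. The 8 genes share a rise with Rosi because they were picked for it. Their upstream sequences were searched for sites that a PPARγ response or the members' own pathways would use. RefSeq promoter windows of 250 bases before and 50 bases after the start (GRCm38.p6) were held for 7 of the 8 genes, in 9 windows, and all 32851 windows were searched on both strands. The direct repeat bound by PPARγ with its partner RXR, written AGGNCANAGGNCA, was in 0 of the 9 windows and in 0.381% of all windows. A single copy of the unit, AGGTCA, was in the Nfe2l3 window only, against 16.3% of all windows. The STAT motif TTCNNNGAA was in the Steap4 window and in 1 of 3 Prlr windows, against 8.30% of all windows. The antioxidant motif TGACNNNGC was in the B3galt2 window only (12.4% of all windows) and CCAAT in 1 Prlr window only (37.4%). None of the 3 Prlr windows sits at the annotated start of the Prlr transcript that carried most reads. A match is a stretch of letters and not a shown binding site, and an empty window says only that these letters are not in it.

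The upstream stretches of 3 genes are shown 5′ to 3′ on the plus strand, each ending just before the start of the gene. They were chosen because 2 hold a searched motif, in capitals (the STAT motif for Steap4 at chr5:7960222-7960456, the AGGTCA unit for Nfe2l3 at chr6:51432419-51432668), and the third, Lrrc39 at chr3:116562733-116562972, holds a unit of 36 bases printed in capitals in 2 identical copies. A repeat of at least 20 bases was found in 363 of the 32851 windows (1.10%).
Steap4: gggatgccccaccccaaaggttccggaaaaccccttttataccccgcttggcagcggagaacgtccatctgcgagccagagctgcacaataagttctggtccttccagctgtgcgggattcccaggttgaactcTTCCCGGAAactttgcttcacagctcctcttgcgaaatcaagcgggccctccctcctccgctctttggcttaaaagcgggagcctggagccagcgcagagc
Nfe2l3: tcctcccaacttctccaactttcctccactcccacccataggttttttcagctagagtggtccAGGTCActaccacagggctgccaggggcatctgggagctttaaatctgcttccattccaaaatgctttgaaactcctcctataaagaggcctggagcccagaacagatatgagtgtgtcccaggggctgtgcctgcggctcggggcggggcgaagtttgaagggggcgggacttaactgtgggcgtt
Lrrc39: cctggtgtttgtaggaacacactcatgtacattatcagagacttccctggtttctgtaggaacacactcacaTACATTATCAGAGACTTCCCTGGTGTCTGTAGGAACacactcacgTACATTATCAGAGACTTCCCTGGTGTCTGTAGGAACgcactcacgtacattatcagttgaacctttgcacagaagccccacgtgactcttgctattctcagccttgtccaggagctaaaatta

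All 8 genes were scarce. Summed over the set, their level was 21.4 to 22.6 CPM in the polysome Rosi libraries, against 1.12 to 2.19 CPM in the polysome Veh libraries. In the input it was 12.8 to 13.5 CPM in Rosi and 1.04 to 1.81 CPM in Veh. For each of the 8 genes, in both fractions, every Rosi library lay above every Veh library, as was so for 4.58% of all tested genes in the polysome and 12.8% in the input. Over all genes, 85 of 13436 tested in the polysome passed the test upward with Rosi (0.633%), as did 154 of 13603 in the input (1.13%) (edgeR quasi-likelihood test with Benjamini-Hochberg adjustment, adjusted p below 0.05 together with a log2 fold change of more than 0.2 up or down). All 8 genes are among those 85, and 3 (Steap4, B3galt2 and Sntb1) are among those 154. Both contrasts may have served to pick the genes, so nothing is read from these counts. In the polysome contrast their log2 fold changes ranked between 9 and 44 of 13436.

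**Figure D1:**
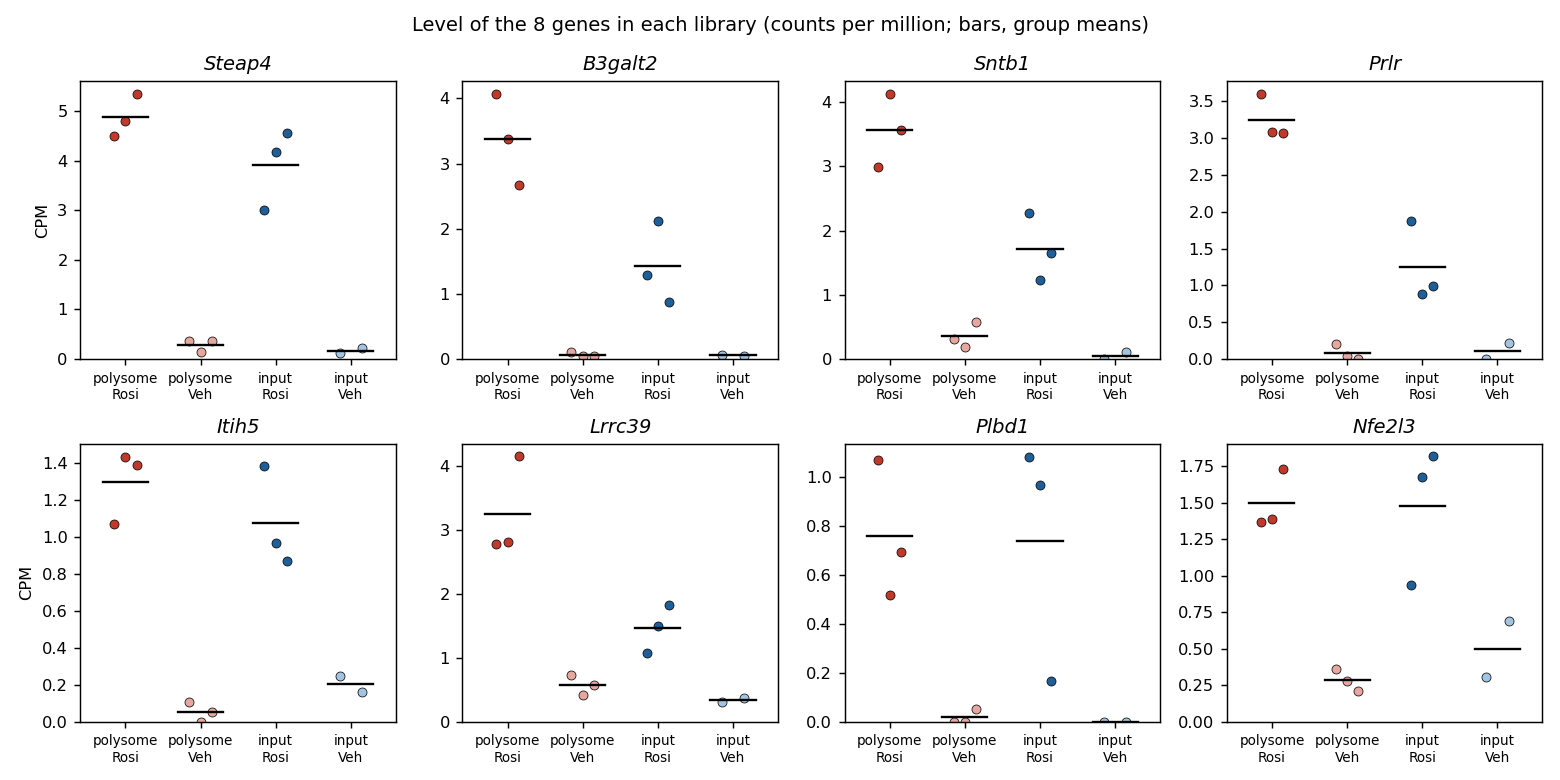
Level of each of the 8 genes in CPM (vertical axis, linear, from 0, with its own range in each panel) in every library of the 4 groups; points are libraries and bars are group means (n = 3, and 2 for input Veh). Every Rosi library lies above every Veh library of the same fraction (4.58% of all genes in the polysome and 12.8% in the input), and for Prlr, B3galt2, Sntb1 and Lrrc39 the polysome Rosi points also lie above all input Rosi points (33.7% of all genes).

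Of the 2 genes whose products face the outside of the cell, the prolactin receptor gene stood further above Veh in the polysome. Prlr had 3.59, 3.08 and 3.07 CPM in polysome Rosi, against 0.208, 0.0467 and 0 CPM in polysome Veh. These are 217 reads against 5, a ratio of 38.9 with an exact 95% interval of 16.4 to 121 that covers counting error only. The log2 fold change was 5.17 ± 0.52 (SE). In the input Prlr had 1.87, 0.880 and 0.994 CPM in Rosi, against 0 and 0.213 CPM in Veh. All 4 input Veh reads came from 1 library, replicate 2, so that without it the fitted log2 fold change, 3.45 with both libraries, became 7.71 against 0 reads. Without polysome Veh replicate 1, the polysome value of Prlr was 6.73. The matrix protein gene Itih5 had 1.07, 1.43 and 1.39 CPM in polysome Rosi, against 0.104, 0 and 0.0523 CPM in polysome Veh. Only 3 reads stood behind its polysome Veh value, so that the ratio of 25.7 had an interval of 8.51 to 127, and the log2 fold change, 4.52 ± 0.62 (SE), was 5.40 without polysome Veh replicate 1. In the input, where Itih5 had 1.38, 0.968 and 0.870 CPM in Rosi and 0.245 and 0.160 CPM in Veh, the ratio was 5.30 (2.44 to 13.7).

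The metalloreductase gene Steap4, the most abundant of the 8 per length in Rosi cells, stood at 4.49, 4.82 and 5.35 CPM in polysome Rosi, against 0.364, 0.140 and 0.366 CPM in polysome Veh, a log2 fold change of 4.06 ± 0.33 (SE). Its input values were 3.01, 4.18 and 4.56 CPM in Rosi and 0.122 and 0.213 CPM in Veh, with a log2 fold change of 4.55 ± 0.45 (SE). The Rosi libraries of the 2 fractions overlapped, as did the Veh libraries.

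The galactosyltransferase gene B3galt2 had a log2 fold change of 5.53 ± 0.45 (SE) in the polysome. Its values were 4.07, 3.38 and 2.68 CPM in polysome Rosi, against 0.104, 0.0467 and 0.0523 CPM in polysome Veh, or 227 reads against 4. In the input it had 1.28, 2.11 and 0.870 CPM in Rosi and 0.0612 and 0.0533 CPM in Veh, with 2 reads in all in Veh and a ratio of 24.8 (6.69 to 208). The hydrolase gene Plbd1 had the fewest reads in Veh. It had 1.07, 0.521 and 0.694 CPM in polysome Rosi, against 1 read in the 3 polysome Veh libraries together (ratio 45.7, interval 7.85 to 1840), so that without the library that held it the fitted log2 fold change, 5.07 in full, became 7.04 against 0 reads. In the input Plbd1 had 1.08, 0.968 and 0.166 CPM in Rosi and no read in either Veh library. Set against a floor of 3 reads over the 2 Veh libraries, which corresponds to 0.0855 CPM, the input Plbd1 ratio was 8.37. That floor is a convention and not a limit from the counts. With 48 Rosi reads against 0 Veh reads, the exact interval of the ratio had a lower limit of 6.55. The third input Rosi library, with 4 Plbd1 reads, stood well under the other 2, which had 22 each.

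The membrane adaptor Sntb1 had 3.00, 4.12 and 3.57 CPM in polysome Rosi, against 0.312, 0.187 and 0.575 CPM in polysome Veh, a log2 fold change of 3.30 ± 0.37 (SE). Its input level was 2.27, 1.23 and 1.66 CPM in Rosi, against 0 and 0.107 CPM in Veh, where 2 reads, both in replicate 2, made the whole signal (log2 fold change 4.83 ± 0.75, SE, and 8.17 against 0 reads without that library). Lrrc39, the M-band gene, had a smaller difference, and no library of any group lacked its reads. It had 2.78, 2.82 and 4.16 CPM in polysome Rosi, against 0.729, 0.421 and 0.575 CPM in polysome Veh (log2 fold change 2.48 ± 0.33, SE). In the input it had 1.08, 1.50 and 1.82 CPM in Rosi and 0.306 and 0.373 CPM in Veh, a log2 fold change of 2.16 ± 0.50 (SE).

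The transcription factor gene Nfe2l3 had a smaller log2 fold change than the other 7 in both fractions, in the input only while input Veh replicate 2 was kept. Its level was 1.37, 1.39 and 1.73 CPM in polysome Rosi, against 0.364, 0.280 and 0.209 CPM in polysome Veh (log2 fold change 2.36 ± 0.40, SE). In the input it was 0.937, 1.67 and 1.82 CPM in Rosi and 0.306 and 0.693 CPM in Veh (log2 fold change 1.61 ± 0.51, SE). Without input Veh replicate 2, its input log2 fold change was 2.32, beside 2.16 for Itih5 and 2.31 for Lrrc39.

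Levels can be compared between genes only per length, in TPM, the unit of reads set against transcript length and then scaled to the same total in each library. In polysome Rosi the order was Steap4 (2.07 ± 0.10 TPM), Lrrc39 (1.43 ± 0.29), Sntb1 (0.931 ± 0.132), Nfe2l3 (0.874 ± 0.112), Plbd1 (0.548 ± 0.223), Prlr (0.465 ± 0.070), B3galt2 (0.456 ± 0.112) and Itih5 (0.205 ± 0.025). Sntb1 and Nfe2l3 lay within their spread of each other, and so did Plbd1, Prlr and B3galt2. In input Rosi the order was Steap4 (1.70 ± 0.41 TPM), Nfe2l3 (1.00 ± 0.36), Lrrc39 (0.681 ± 0.198), Plbd1 (0.527 ± 0.349), Sntb1 (0.454 ± 0.125), B3galt2 (0.193 ± 0.085), Prlr (0.174 ± 0.066) and Itih5 (0.172 ± 0.036), where most neighbours lay within their spread. Even with Rosi these were low levels. Steap4 stood at the 22.3rd percentile of the 14042 genes tested in polysome Rosi, and Itih5 at the 3.09th.

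The genes were picked for the difference between Rosi and Veh, which shares the polysome Rosi libraries with the comparison of the 2 fractions. In that comparison the members fell on both sides of the threshold, and those that passed were not tested against those that did not. In Rosi cells, 4 of the 8 genes were higher in the polysome than in the input with an adjusted p below 0.05 and more than 1 log2 unit of difference (edgeR quasi-likelihood test over 14042 genes), against 6.49% of all genes called in that direction. Prlr stood 1.39 ± 0.42 log2 units (SE) above its input level (adjusted p = 0.0109), B3galt2 1.25 ± 0.33 (adjusted p = 0.00431), Lrrc39 1.13 ± 0.30 (adjusted p = 0.00426) and Sntb1 1.05 ± 0.34 (adjusted p = 0.0149). In these 4 genes every polysome Rosi library lay above every input Rosi library, a separation that 33.7% of all genes showed. The other 4 did not pass the test. Their values in log2 units were 0.31 ± 0.23 (SE) for Steap4 (adjusted p = 0.265), 0.28 ± 0.39 for Itih5 (adjusted p = 0.567), 0.06 ± 0.58 for Plbd1 (adjusted p = 0.936) and 0.01 ± 0.35 for Nfe2l3 (adjusted p = 0.988), and their polysome and input libraries overlapped.

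Each of the 4 calls was lost when some single library was left out. The log2 fold change was 1.19 (adjusted p = 0.0501) for Prlr and 0.86 (adjusted p = 0.0660) for Sntb1 without input Rosi replicate 2, 0.98 (adjusted p = 0.0267, under the minimum difference) for B3galt2 without input Rosi replicate 3, 0.92 for Lrrc39 without polysome Rosi replicate 3, 0.96 for Lrrc39 without input Rosi replicate 1, and 0.93 (adjusted p = 0.0652) for Sntb1 without polysome Rosi replicate 2. The polysome Rosi libraries also entered the contrast on which the genes were picked. The adjusted p-values of the members and the share of 4 in 8 are therefore not independent of that choice. Among the other 77 genes called higher with Rosi in the polysome, which share this property, 6 were called higher in the polysome than in the input of Rosi cells (7.79%), and their median log2 fold change was 0.04, against 0.68 for the 8 genes and 0.00 for all genes. No test was made of that difference.

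**Figure D2:**
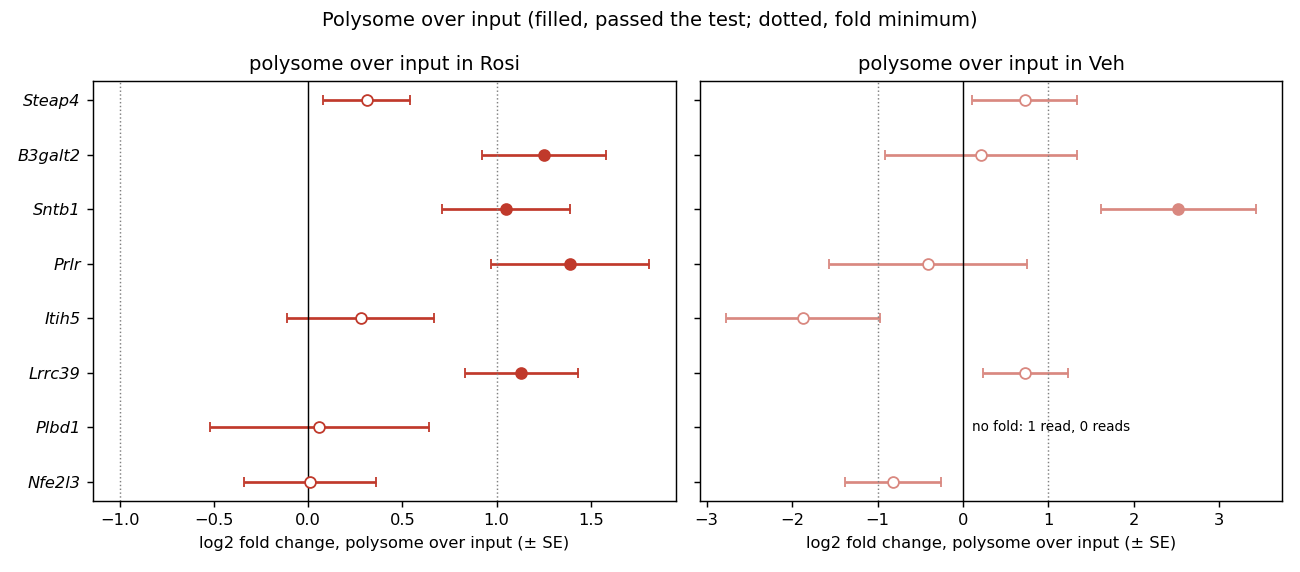
Log2 fold change of polysome over input for each gene in Rosi cells (left) and Veh cells (right), with its SE; the horizontal axes differ. Filled points passed the test with an adjusted p below 0.05 and lie beyond 1 log2 unit (dotted lines). Prlr, B3galt2, Lrrc39 and Sntb1 passed in Rosi, and Sntb1 alone in Veh, where Plbd1 had 1 read in the polysome and 0 in the input and has no fold.

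In Veh cells, few reads stood behind the same comparison. Sntb1 was the only member called higher in the polysome, by 2.52 ± 0.91 log2 units (SE, adjusted p = 0.0307), against 2.99% of all genes. It rested on 21 polysome reads against 2 input reads, a ratio of 6.17 with a counting interval of 1.51 to 54.3, and it missed the threshold without polysome Veh replicate 3 (2.01, adjusted p = 0.0928) and without input Veh replicate 1 (1.68, adjusted p = 0.186). Itih5 ran the other way, with 3 polysome reads against 7 input reads and a difference of -1.87 ± 0.90 log2 units (SE), which missed the threshold (adjusted p = 0.0989). The remaining members with a fold lay between -0.82 (Nfe2l3) and 0.73 (Lrrc39). For Prlr and B3galt2 the direction in Veh turned when 1 library was left out.

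Whether Rosi moved a gene more in the polysome than in the input is the question of translation efficiency. Over all 14042 genes, 0 were called for this interaction (0%) by the edgeR quasi-likelihood test (adjusted p below 0.05, difference of more than 1 log2 unit), with 961 at an unadjusted p under 0.05 and 1 called by DESeq2. For the members the difference of the 2 log2 fold changes (polysome minus input) was 2.15 ± 0.98 (SE) for Itih5, 1.79 ± 1.32 for Prlr, 1.04 ± 1.35 for B3galt2, 0.83 ± 0.65 for Nfe2l3, 0.40 ± 0.61 for Lrrc39, -0.41 ± 0.65 for Steap4 and -1.46 ± 1.00 for Sntb1. For Plbd1 it was -1.86 ± 2.55, a fitted value that rests on 0 input Veh reads. These are given with no test, since both effects may have been used to pick the genes. The sign turned for Prlr without input Veh replicate 2 (-2.53), for Plbd1 without polysome Veh replicate 3 (0.06) and for Steap4 with limma on TPM (0.13).

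The lengths of the main transcripts are given beside the calls of polysome over input in Rosi, and the part of length in them was not tested. The main transcripts of Prlr (9900 bases) and B3galt2 (9288 bases), with 3′ untranslated regions of 7745 and 7221 bases, are among the longest of all tested genes, at the 98.2nd and 97.6th percentile. Itih5, at 7900 bases, is nearly as long and did not pass, while Lrrc39, at 3087 bases, passed and Steap4, at 3155 bases, did not. Over the 14042 genes, Spearman's rho between the length of the main transcript and the polysome over input fold change in Rosi was -0.10, a description across genes, which are not independent replicates.

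Lrrc39 reads fell on 2 transcripts, one that encodes the protein and one that retains an intron and has no annotated coding sequence. The protein-coding form had 2.55, 2.31 and 3.67 CPM in polysome Rosi, against 0.317, 0.243 and 0.0889 CPM in polysome Veh. The intron-retaining form had 0.244, 0.521 and 0.500 CPM in polysome Rosi and 0.401, 0.182 and 0.507 CPM in polysome Veh, so that its 2 groups overlapped. In the input, the protein-coding form of Lrrc39 averaged 0.803 ± 0.064 CPM in Rosi (n = 3) and 0.277 ± 0.007 CPM in Veh (n = 2), and the intron-retaining form averaged 0.673 ± 0.407 CPM in Rosi and 0.0613 ± 0.0867 CPM in Veh. The intron-retaining form took 8.76 to 18.5% of the Lrrc39 reads in polysome Rosi, against 20.8 to 57.2% in input Rosi, with no overlap. In Veh the order was the other way, also with no overlap, at 42.7 to 85.0% in polysome Veh, against 0 to 31.3% in input Veh, from 5 to 14 reads a library. Shares by TPM gave means of 13.96% in polysome Rosi and 44.4% in input Rosi. These splits are estimates by Salmon from 22 to 84 reads a Rosi library. Trmt13, a tRNA methyltransferase gene, overlaps Lrrc39 on the other strand, and the strand setting of the libraries is not given in the sources used here. Trmt13 averaged 2.92 ± 0.48 CPM in polysome Rosi and 3.42 ± 0.67 CPM in polysome Veh.

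**Figure D3:**
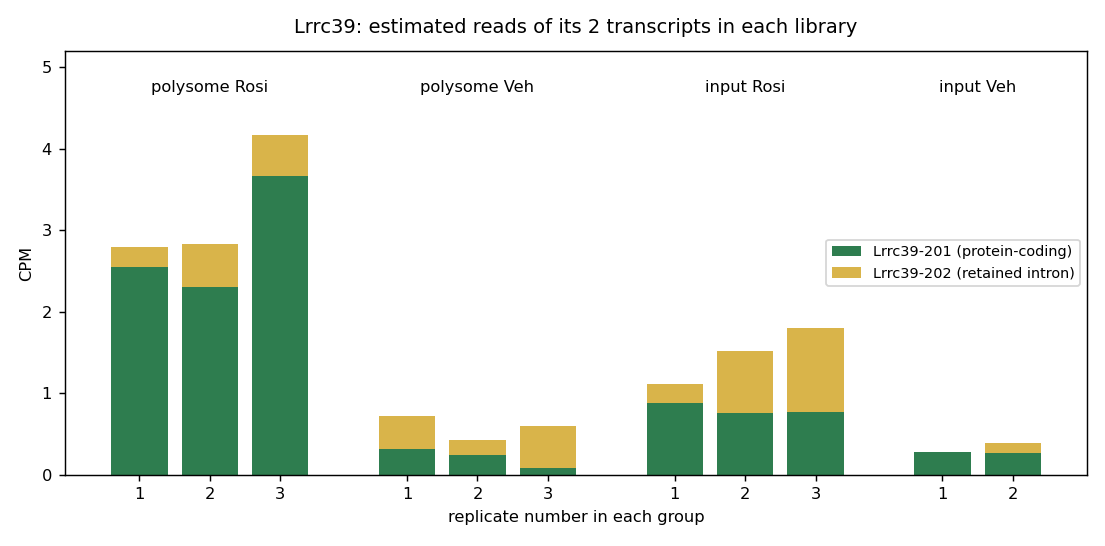
Reads of the 2 Lrrc39 transcripts in CPM (stacked bars, vertical axis from 0) in each library of the 4 groups. The protein-coding form (green) makes up most of the polysome Rosi bars, at 2.31 to 3.67 CPM, while the intron-retaining form (yellow) is at 0.182 to 0.521 CPM in all polysome libraries.

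For Prlr, the question was which receptor form was present, since the gene has 12 annotated transcripts, among them ones that encode receptors with long or short intracellular parts. The transcript with the longest coding sequence (1824 bases), the long form, took 85.3 to 100.0% of the Prlr reads in polysome Rosi and 93.8 to 95.6% in input Rosi. By TPM its mean share was 83.3% in polysome Rosi and 86.0% in input Rosi. In polysome Veh, 2 of the 3 libraries had any Prlr reads, too few to give a composition. Nfe2l3 reads fell mostly on the longest coding transcript, with 86.1 to 100.0% in polysome Rosi and 82.6 to 91.0% in input Rosi (by TPM, a mean of 89.7% in polysome Rosi and 72.0% in input Rosi). Sntb1, Itih5, Steap4, B3galt2 and Plbd1 each had 1 transcript that was the only one annotated or took all reads. The gene Cdc73 overlaps B3galt2 on the other strand, and it averaged 53.1 ± 3.7 CPM in polysome Rosi and 50.6 ± 8.2 CPM in polysome Veh.

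Genes of the members' families and pathways were tested in the same 2 contrasts. Across 8 family and pathway lists holding 98 genes, 0 of 80 tested were called in either direction with Rosi in the polysome (edgeR quasi-likelihood test, 0.633% of all genes higher and 0.0223% lower). Of these 80, 4 had an unadjusted p under 0.05, as did 636 of all 13436 genes, and 0 were called by DESeq2. In the input 0 of 80 were called as well (1.13% of all genes higher and 0.206% lower). There, 11 had an unadjusted p under 0.05, as did 2312 of all 13603 genes, and 1, the transferrin gene Trf, was called by DESeq2. Both counts of 0 lie near the share of all genes called, so nothing about the families is read from them. The median log2 fold change of the 80 tested genes was -0.03 in the polysome and 0.03 in the input, against -0.01 and 0.01 for all genes and 4.29 and 4.00 for the members. The input count depends on 1 library, because 9 of 80 were called (4 higher and 5 lower) without input Rosi replicate 1.

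**Figure D4:**
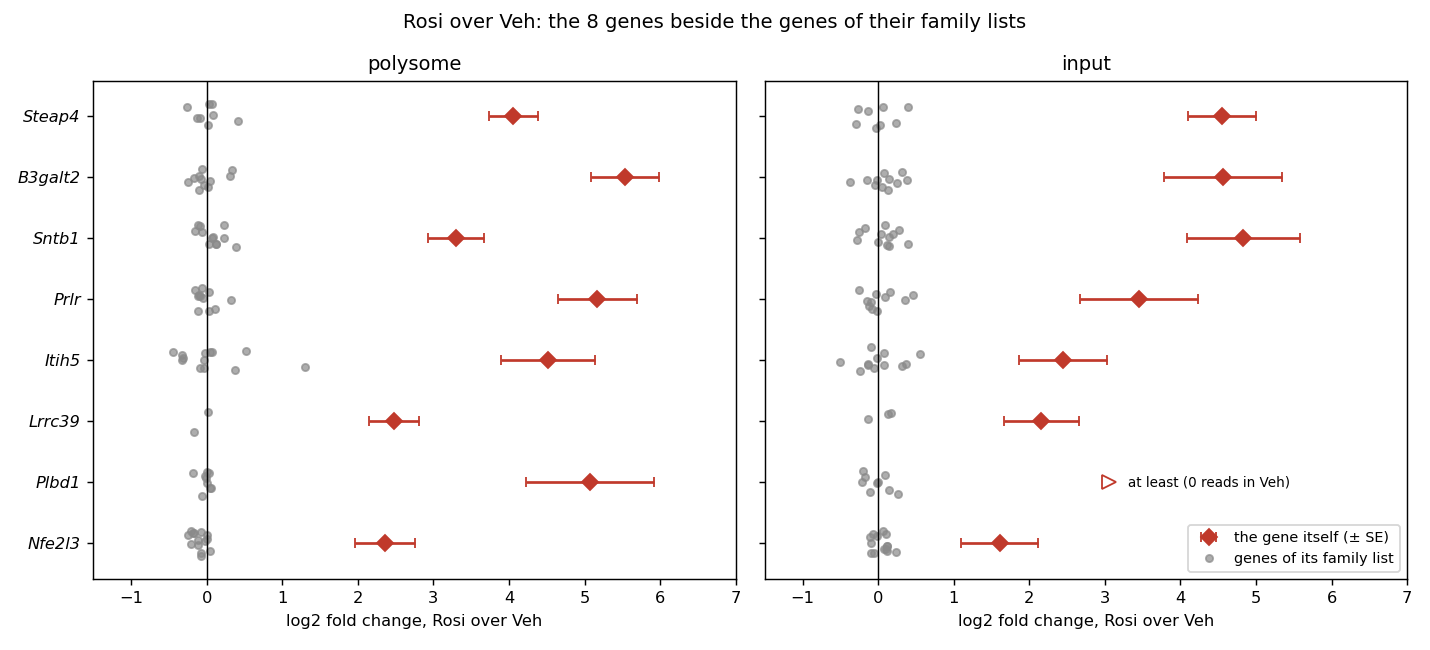
Log2 fold change of Rosi over Veh in the polysome (left) and the input (right) for each of the 8 genes (red diamonds, ± SE) and for the tested genes of its family list (grey points, 80 in each fraction, spread vertically for clarity). The open triangle is the value of Plbd1 set against the floor of 3 reads, since it had 0 reads in input Veh. The grey points run from -0.44 to 1.3 in the polysome and from -0.50 to 0.55 in the input, left of the red diamonds.

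In the prolactin list, the growth hormone receptor gene Ghr, the closest relative of Prlr there, averaged 175 ± 4.61 CPM in polysome Rosi and 161 ± 30.3 CPM in polysome Veh (SD, n = 3 each). The hormone genes Prl and Gh had at most 0.104 CPM in any library. In the polysome, the log2 fold change of the signalling kinase gene Jak2 was -0.11 ± 0.12 (SE), that of Stat5a -0.06 ± 0.16 and that of Stat5b 0.03 ± 0.13. The Stat5 target genes Cish and Socs2 had values of -0.05 ± 0.19 and -0.11 ± 0.10. None of the 11 tested genes of this list passed in either fraction.

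Among the other STEAP genes, Steap1 averaged 49.3 ± 2.2 CPM in polysome Rosi and 45.9 ± 8.86 CPM in polysome Veh, Steap2 averaged 180.0 ± 3.92 CPM in polysome Rosi and 175 ± 21.9 CPM in polysome Veh, and Steap3 averaged 20.7 ± 2.81 CPM in polysome Rosi and 20.3 ± 2.02 CPM in polysome Veh. The transferrin receptor gene Tfrc, through which iron enters the cell, had a log2 fold change of 0.07 ± 0.13 (SE) in the polysome and of -0.29 ± 0.09 in the input (adjusted p = 0.134). Trf, which encodes the iron carrier transferrin, had the highest values of the 8 genes on this list, 0.41 ± 0.12 in the polysome (adjusted p = 0.425) and 0.40 ± 0.10 in the input (adjusted p = 0.0810). Among galactosyltransferases, B3galt1, which belongs to the same beta-1,3 group as B3galt2, averaged 4.31 ± 0.09 CPM in polysome Rosi and 3.45 ± 0.31 CPM in polysome Veh. B3galt6 had a log2 fold change of 0.34 ± 0.16 (SE) and B3galt4 of -0.10 ± 0.17 in the polysome, B3galt5 was too low to be tested, and none of the 11 tested genes of that list passed in either fraction.

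Of the other syntrophins, Sntb2 averaged 50.4 ± 1.35 CPM in polysome Rosi and 55.7 ± 4.15 CPM in polysome Veh. In the polysome, the log2 fold change was 0.13 ± 0.28 (SE) for Sntg1, 0.23 ± 0.14 for the dystrophin gene Dmd and -0.11 ± 0.11 for its homologue Utrn. Of the inter-alpha-trypsin inhibitor genes, Itih2, which neighbours Itih5 on chromosome 2, averaged 0.662 ± 0.428 CPM in polysome Rosi and 0.827 ± 0.152 CPM in polysome Veh. Itih3 had the largest log2 fold change on any of the 8 lists in the polysome, 1.3 ± 0.56 (SE, adjusted p = 1.00), and Itih1 and Itih4 were too low to be tested. The hyaluronan synthase gene Has2 had 0.38 ± 0.19 in the polysome.

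Of the M-band genes on the Lrrc39 list, Ttn, Myom3 and Myh6 averaged at most 0.298 CPM in any group, and Myh7 and Lrrc10 had no reads. Myom1, a structural protein of the M-band, averaged 3.75 ± 0.19 CPM in polysome Rosi and 4.17 ± 0.38 CPM in polysome Veh. Plbd2, the paralog of Plbd1, averaged 129 ± 6.72 CPM in polysome Rosi and 125 ± 21.6 CPM in polysome Veh, and none of the 9 genes of lysosomal lipid breakdown on that list passed in either fraction. Of the factors related to Nfe2l3, Nfe2l1 had a log2 fold change of 0.04 ± 0.11 (SE) and Nfe2l2 of -0.12 ± 0.10 in the polysome. The antioxidant target genes Nqo1 and Hmox1 had -0.02 ± 0.14 and -0.07 ± 0.12, and 0 of 14 genes of that list were called in either fraction.

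The protein-coding genes that flank the members on the chromosome were measured as well. Of 16 flanking genes 11 were tested, and 0 were called in the polysome or the input by the edgeR quasi-likelihood test, a count near the share of all genes called higher (0.633% in the polysome and 1.13% in the input). At an unadjusted p under 0.05 in that test were 0 of the 11 in the polysome and 1 in the input, against 636 of 13436 and 2312 of 13603 genes overall. Mtbp, 9965 bases from Sntb1, had a log2 fold change of 0.22 ± 0.17 (SE) in the polysome, Hnrnpa2b1, 2164 bases from Nfe2l3, 0.08 ± 0.12, and Atf7ip, 1208 bases from Plbd1, -0.14 ± 0.13.

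For each member, the genes whose level ran most like its own were found over the 11 libraries. By Pearson's r of log2 CPM, among 11448 genes, Enpp2 (autotaxin) was closest to Steap4 (r = 0.986), followed by the lipid droplet genes Cidec (0.980) and G0s2 (0.979). Rarres2 (chemerin) was closest to both B3galt2 (0.967) and Prlr (0.972), Rgcc to Sntb1 (0.976), Hp (haptoglobin) to Itih5 (0.965), the fatty acid binding protein gene Fabp4 to Lrrc39 (0.982), Hrct1 to Plbd1 (0.962) and Trarg1, a gene of glucose transporter traffic, to Nfe2l3 (0.930). These are descriptions: all 11 libraries share the contrast between Rosi and Veh, which sets most of each r.

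Markers of adipocytes moved with the set. Their summed level was 1440 to 1710 CPM in polysome Rosi, against 294 to 332 CPM in polysome Veh, and 854 to 995 CPM in input Rosi, against 275 to 332 CPM in input Veh. Fabp4 was the largest part of the polysome Rosi sum, with a mean of 1150 CPM there and 132 CPM in polysome Veh. Cebpa averaged 164 CPM in polysome Rosi and 158 CPM in polysome Veh. Of the 10 adipocyte markers, 6 of 9 tested were called higher in the polysome and 6 of 10 in the input. Over all genes these shares were 0.633% and 1.13%. Cidec had a log2 fold change of 7.55 ± 0.20 (SE) in the polysome and Adipoq (adiponectin) of 5.61 ± 0.23. Pparg (0.37 ± 0.14), Cebpa (0.04 ± 0.15) and Slc2a4 (1.98 ± 0.74) were tested in the polysome and not called. In the input none of these was called, nor was Cfd (0.68 ± 0.50). Macrophage markers were abundant, with sums of 14800 to 18700 CPM in polysome Rosi and 16500 to 21400 CPM in polysome Veh, and of 11900 to 14000 CPM in input Rosi and 16700 to 19200 CPM in input Veh, with no overlap in the input. Lyz2 alone of the 10 was called, lower in the input (log2 fold change -0.45 ± 0.08, SE, adjusted p = 0.0112). It made up most of the macrophage sums, with means of 12100 CPM in polysome Rosi, 14600 in polysome Veh, 7470 in input Rosi and 10700 in input Veh. The part of these 2 cell types in the members' values was not tested.

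Of the other cell types no marker was called in either fraction, though some sums did not overlap between groups. Neutrophil markers summed to 3.25 to 4.92 CPM in polysome Rosi and 3.56 to 5.14 CPM in polysome Veh, with S100a9 at 0 in all libraries. Lymphocyte markers summed to 1.08 to 1.24 CPM in polysome Rosi and 0.654 to 0.941 CPM in polysome Veh, with no overlap and with Cd3e at 0. Cd8a made up most of the lymphocyte sums, with 1.11 CPM in polysome Rosi and 0.709 in polysome Veh. Striated muscle markers summed to 15.3 to 20.2 CPM in polysome Rosi and 12.2 to 13.7 CPM in polysome Veh, and to 23.2 to 27.7 CPM in input Rosi and 17.9 to 21.9 CPM in input Veh, with no overlap in either fraction, Myh4 and Myh7 at 0 and 0 of 3 tested markers called. Acta1 made up most of these sums, with 13.6 CPM in polysome Rosi, 9.35 in polysome Veh, 23.7 in input Rosi and 17.7 in input Veh. Ckm, Tnnt3, Myl2 and Actc1 averaged at most 0.252 CPM in any group. Among single genes, every Rosi library lay above every Veh library in 4.58% of those tested in the polysome and 12.8% in the input. Epididymal epithelium markers summed to 132 to 160 CPM in polysome Rosi and 156 to 256 CPM in polysome Veh. In the input they summed to 72.5 to 91.8 CPM in Rosi and 112 to 125 CPM in Veh. Lcn5, Lcn8, Lcn9 and Adam7 were at 0. Crisp1 made up most of the epididymal sums, with 144 CPM in polysome Rosi, 191 in polysome Veh, 80.0 in input Rosi and 118 in input Veh. Smooth muscle and pericyte markers summed to 10100 to 10600 CPM in input Rosi and 11500 to 11600 CPM in input Veh, with an overlap in the polysome. The part of these cell types in the members' values was not tested. Of the adipose progenitor, mesothelium, smooth muscle and pericyte, and endothelium markers, 0 were called in either fraction. The adipose progenitor markers summed to 341 to 384 CPM in polysome Rosi and 297 to 425 CPM in polysome Veh.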

How the data were processed

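The authors deposited 1 Salmon table per library from paired-end reads of polyadenylated RNA, with estimated counts and TPM for 117135 transcripts; the notes name bcl2fastq 2.17, FastQC, Salmon, DESeq2 and mm10, and the paper the library kit. The estimated counts deposited were summed per gene with GENCODE M21 (115973 transcripts matched; the others held 0.381 to 0.464% of reads) and rounded. TPM, deposited by the authors, was summed per gene for levels between genes. The protocol gives 4 days of culture and the design text 3 days.

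Genes were filtered with filterByExpr (minimum count 10, total 15), scaled by TMM and tested with edgeR 4.0.16 (quasi-likelihood, Benjamini-Hochberg over all genes; R 4.3.3). Rosi was compared with Veh within each fraction, and polysome with input within each treatment in 1 fit of 4 groups. A gene was called when its adjusted p was below 0.05 and it differed by more than 0.2 (Rosi over Veh) or 1 (others) on the log2 scale. Intervals of ratios are exact (Clopper-Pearson, 95%) on pooled reads. The fits were tested on simulated data. Alternatives used DESeq2 1.42.0, limma 3.58.1 on log2(TPM + 1), other filters, factors and library sets. P-values measure the spread between these libraries, which may be technical.

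The members, and the family and marker lists, were chosen with earlier results of these data known. Named besides them were, by rule, listed genes that passed, direct paralogs, flanking genes and the most similar genes; other genes of the lists (Prl, Gh, Jak2, Stat5a, Stat5b, Cish, Socs2, Tfrc, Trf, Dmd, Utrn, Has2, Nqo1, Hmox1, M-band genes) and overlapping antisense genes were named after their values were seen. At a depth of 17.4 to 24.02 M reads, 1 read was worth at most 0.0612 CPM, and the members' Veh levels rest on few reads; their number limits the precision. Some genes of the lists are counted but not reported by name here.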

Additional observations from a re-analysis of the deposited data

How the results depend on the processing

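Each member was higher with Rosi in both fractions under the alternatives that gave it a value. On TPM only Steap4 and Lrrc39 in the polysome and Steap4 and Nfe2l3 in the input passed the filter. These gave the lowest log2 values, 0.67 (Nfe2l3) to 1.45 (Steap4 in the polysome). The 1 added to TPM before the log narrows differences at such low levels. Steap4, for example, averaged 2.07 TPM in polysome Rosi and 0.123 TPM in polysome Veh. Input Plbd1 had values under 9 alternatives. Counts over all genes moved more, and the cause was not tested. For Rosi over Veh in the polysome, 88 genes were called, against 189 with no filter, 37 with limma on log2(TPM + 1), and 55 (without polysome Veh replicate 2) to 179 (without polysome Veh replicate 1) with 1 library left out. In the input 182 were called, against 385 with DESeq2, 907 with no filter, 1054 with all 12 libraries as deposited, 57 with limma, 77 in a fit of all 4 groups, and 66 (without input Veh replicate 2) to 1580 (without input Rosi replicate 1) with 1 library left out. For polysome over input, 1593 in Rosi and 1358 in Veh compare with 876 and 844 with limma and with 7731 and 6929 with no minimum difference; leaving out 1 library gave 1351 to 1769 in Rosi and 995 to 1705 in Veh. For the interaction, 0 compares with 1 by DESeq2, 57 with no filter, and 0 to 9 with 1 library left out.

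Among the members, polysome over input turned sign only where it was small or rested on few reads. In Rosi, Nfe2l3 was -0.00 with DESeq2 and with RLE factors, -0.08 with limma and -0.23 to 0.19 with 1 library left out, and Plbd1 was -0.42 to 0.44. In Veh, B3galt2 was -0.19 to 0.42 and Prlr -1.97 to 3.91. The call of Lrrc39 in Rosi was lost with limma on log2(TPM + 1) (0.53, adjusted p = 0.0192, under the minimum difference). Its means were 1.43 TPM in polysome Rosi and 0.681 TPM in input Rosi, where the added 1 narrows the difference. Of all values compared with a test, 290 kept their side of the threshold and direction, 10 lost the call and 10 turned sign. Some of the 290 could hardly move, as in Rosi without a Veh library or with no minimum difference. Values that were never called are also among the 290, so the tally does not measure how firm the calls are.

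Deviations of same-numbered libraries from their group means correlated at -0.233 to 0.114, and those of differently numbered libraries at -0.114 to 0.269. With 2 or 3 libraries in a group these deviations depend on each other, so they cannot show whether the numbers pair the libraries. With the replicate block, Sntb1 in Veh missed the threshold (2.44, adjusted p = 0.0554; 2.60, adjusted p = 0.0387, where the duplicated library was numbered 3), no other member's call changed, and 102 and 187 genes were called for Rosi over Veh in the polysome and the input.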
